A study of Mus musculus with 17 samples.

Results

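The mitosis and DNA replication genes followed here are 45 genes that dividing cells use to copy their DNA and to separate their chromosomes, 29 of mitosis and 16 of replication. They were taken by gene symbol from the array's probe names, and 44 of them had a probe that passed the signal filter, out of 26458 genes tested. The spindle midzone gene Prc1 was not analysed here, so 28 mitosis and 16 replication genes enter the counts. No measured value of these samples entered the rule that lists them.

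The samples come from the postnatal subventricular zone (SVZ), a germinal layer along the lateral ventricle whose progenitors make neurons for the olfactory bulb as well as glia. In vivo electroporation of CD1 mice on postnatal day 1 marked progenitors of either the dorsal or the lateral wall with GFP, and the GFP-positive cells were collected by cell sorting 8 hours or 1, 2, 4, 7 or 14 days later. Each of the 17 two-colour Agilent arrays held 1 dorsal sample (Cy3) and 1 lateral sample (Cy5) of the same time, with 2, 3, 2, 3, 3 and 4 arrays from 8 hours to 14 days. The dyes were never swapped, and the labels call the dorsal channel polyA RNA and the lateral one total RNA, so in any dorsal against lateral difference the wall, the dye and this label cannot be told apart. A change over time within a wall stays within 1 dye. All samples went through a global PCR amplification of their cDNA before labelling. The sources used here do not give the electroporated construct, its promoter or how many animals a sample pooled. The labels call the arrays of a time biological replicates.

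A cell that will divide first licenses its DNA for copying by loading the MCM helicase rings with the help of Cdt1, and geminin (Gmnn) blocks a further round. E2F factors and cyclin E drive entry into S phase, when PCNA, the sliding clamp of DNA polymerases, and enzymes that supply nucleotides (ribonucleotide reductase, thymidylate synthase) are needed. Cyclins A and B and the kinases Plk1 and Aurora then lead the cell into mitosis, kinesin motors build the spindle, and Cdc20 activates the ubiquitin ligase that lets sister chromatids part. In the SVZ these genes are read as marks of cycling progenitors and transit-amplifying cells, and post-mitotic neuroblasts and neurons lack most of them.

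The mitosis and the replication genes differed in how often they carried some short motifs near their start sites. As examples, 4 promoters that hold such motifs are shown. They are RefSeq windows of GRCm38.p6, 250 bases before to 50 after the annotated start, printed 5′ to 3′ on the strand of the gene. Capitals mark 3 motifs searched on both strands: the cell cycle homology region (CHR, TTTGAA or TTCGAA), the E2F motif (TTTCCCGC, TTTGGCGC, TTTCGCGC or TTTGCCGC) and the CCAAT box (CCAAT). Plk1 lies at chr7:122159185-122159484 on the plus strand and Cdc20 at chr4:118437294-118437593 on the minus strand. Mcm5 lies at chr8:75109259-75109558 on the plus strand and Mcm6 at chr1:128359656-128359955 on the minus strand.
Plk1: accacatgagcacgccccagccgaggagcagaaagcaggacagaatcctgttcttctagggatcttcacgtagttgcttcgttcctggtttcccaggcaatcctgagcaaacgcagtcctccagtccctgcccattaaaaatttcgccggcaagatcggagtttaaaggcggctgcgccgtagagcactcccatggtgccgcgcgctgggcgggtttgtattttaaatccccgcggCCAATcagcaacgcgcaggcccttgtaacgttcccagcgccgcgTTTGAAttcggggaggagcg
Cdc20: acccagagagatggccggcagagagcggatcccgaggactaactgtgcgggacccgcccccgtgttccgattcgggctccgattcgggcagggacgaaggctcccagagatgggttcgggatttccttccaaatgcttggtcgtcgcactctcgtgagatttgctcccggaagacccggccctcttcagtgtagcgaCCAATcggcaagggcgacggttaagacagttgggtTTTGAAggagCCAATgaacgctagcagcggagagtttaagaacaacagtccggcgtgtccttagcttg
Mcm5: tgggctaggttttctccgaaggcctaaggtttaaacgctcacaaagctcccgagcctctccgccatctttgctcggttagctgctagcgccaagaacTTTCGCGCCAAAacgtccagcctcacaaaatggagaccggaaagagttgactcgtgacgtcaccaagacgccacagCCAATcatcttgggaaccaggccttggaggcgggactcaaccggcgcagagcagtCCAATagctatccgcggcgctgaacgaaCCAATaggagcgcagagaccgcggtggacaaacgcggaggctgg
Mcm6: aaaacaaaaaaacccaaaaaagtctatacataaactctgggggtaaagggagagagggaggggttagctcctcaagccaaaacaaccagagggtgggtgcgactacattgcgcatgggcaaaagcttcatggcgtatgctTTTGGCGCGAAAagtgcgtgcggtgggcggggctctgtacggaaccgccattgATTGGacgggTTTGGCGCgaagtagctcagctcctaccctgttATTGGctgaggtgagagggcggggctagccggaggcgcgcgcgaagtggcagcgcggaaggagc
In Plk1 and Cdc20 the CHR letters lie close to the start, at base 31 and base -18 counted from it. In Mcm5 and Mcm6 an E2F match and an overlapping reverse match of another listed E2F motif make 1 longer run of capitals. A promoter was found for 38 of the 45 genes. The CHR letters were in 20 of 25 mitosis genes (80%) and in 2 of 13 replication genes (15.4%), against 21.7% of 27025 genes in the same table. The E2F letters were in 0 of 25 mitosis genes and in 5 of 13 replication genes (38.5%), against 2.6% of all genes. The CCAAT box was in 20 of 25 and 8 of 13, against 41.1%. A match is a description of these letters, not of a bound site.

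The share of probes well above background was 41.5 to 77.0% per dorsal sample and 56.8 to 79.7% per lateral sample, and 22 of the 44 genes were well above background in both channels of all 17 arrays. Of the 17 arrays 2 stood apart, replicate 1 of 1 day and replicate 2 of 14 days, whose median correlations across genes to the others were 0.69 and 0.77, where the rest had 0.85 to 0.92. The arrays of 1 day and those of 14 days each filled a slide of their own, so slide and time cannot be told apart there, while the other 4 times shared 3 slides. In these bulk samples fewer cycling cells and less RNA per cell cannot be told apart. Levels below are log2 normalized intensities, which can be compared between samples for a gene but not between genes, and differences are given as log2 values ± SE. Early means 8 hours, 1 day and 2 days (7 arrays), late means 7 and 14 days (7 arrays), and each time point weighs equally. A gene is called where limma's p-value, adjusted over all genes of a comparison, is under 0.05.

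In both walls most of the genes had their highest time mean at 1 or 2 days and their lowest at 7 or 14 days. The median level of the mitosis genes in the dorsal samples was 10.39 (8 hours), 10.89 (1 day), 11.92 (2 days), 10.83 (4 days), 9.73 (7 days) and 9.15 (14 days). In the lateral samples it was 11.41, 12.32, 13.13, 11.63, 9.41 and 9.61 at the same times. The lateral curve thus stood above the dorsal one at every time but 7 days and had a larger span, although the walls also differ in dye. The replication genes had dorsal medians of 11.90, 12.26, 13.13, 11.99, 11.55 and 10.71, and lateral medians of 13.52, 14.15, 14.41, 12.47, 11.11 and 10.64. The time mean was highest at 2 days for 21 of 28 mitosis and 12 of 16 replication genes in the dorsal samples, and for 21 and 9 in the lateral ones. The lateral medians of 1 day replicate 1, which stood apart, were 10.80 (mitosis) and 12.94 (replication). The other 1 day arrays had 13.41 and 12.97, and 14.86 and 14.75. Those of 2 days had 13.11 and 13.08, and 14.42 and 14.50, so lateral 1 day and 2 days levels cannot be put in order here. It was lowest at 14 days for 18 mitosis and 11 replication genes in the dorsal samples, and at 7 days for 6 and 1. The other dorsal low points were at 8 hours for 2 mitosis and 3 replication genes and at 1 day for 2 and 1. In the lateral samples the low point was at 7 days for 17 mitosis and 8 replication genes and at 14 days for the others. Cyclin E2 (Ccne2), a driver of S phase entry, was the only gene with a lateral time mean that was highest at 7 days, and its dorsal level of 15.52 on 1 day replicate 1 stood far above the 6.91 and 7.04 of the other 1 day arrays.

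**Figure D1:**
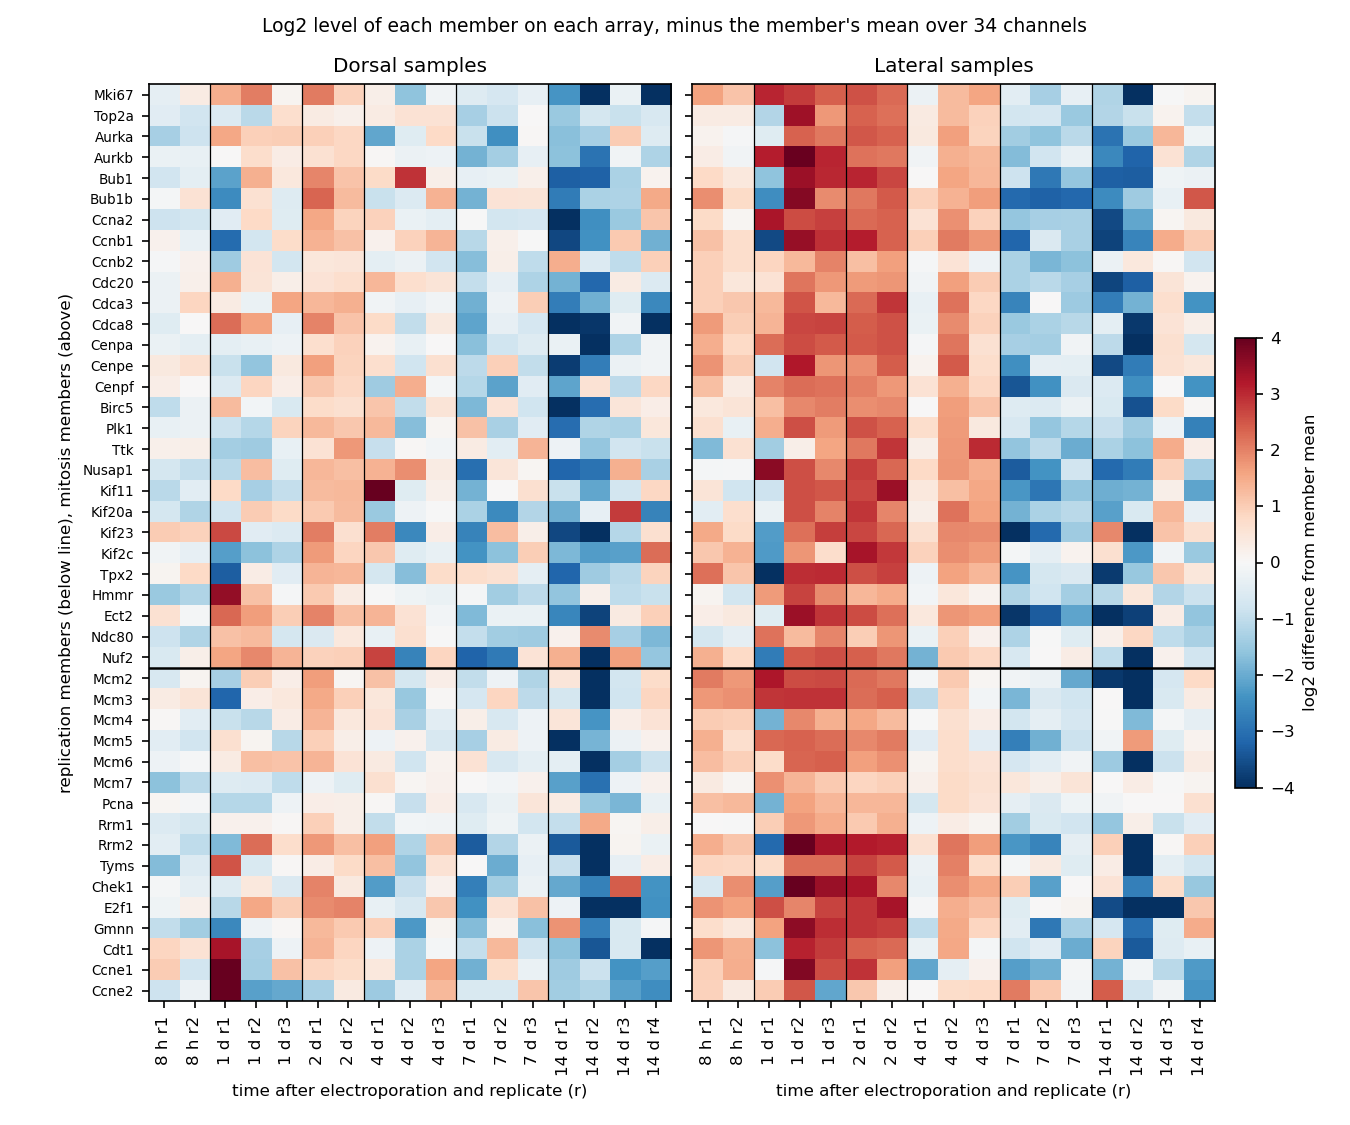
Level of each of the 44 genes (rows) on each array (columns, ordered by time after electroporation) in dorsal samples (left) and lateral samples (right), as the log2 difference from the gene's mean over 34 channels, with colours that end at 4 and -4. Mitosis genes are above the line and replication genes below it. The lateral samples are red up to 2 days for most genes and blue at 7 days, the dorsal samples show paler colours at the same times, and 14 days replicate 2 is blue for most genes in both walls.

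**Figure D2:**
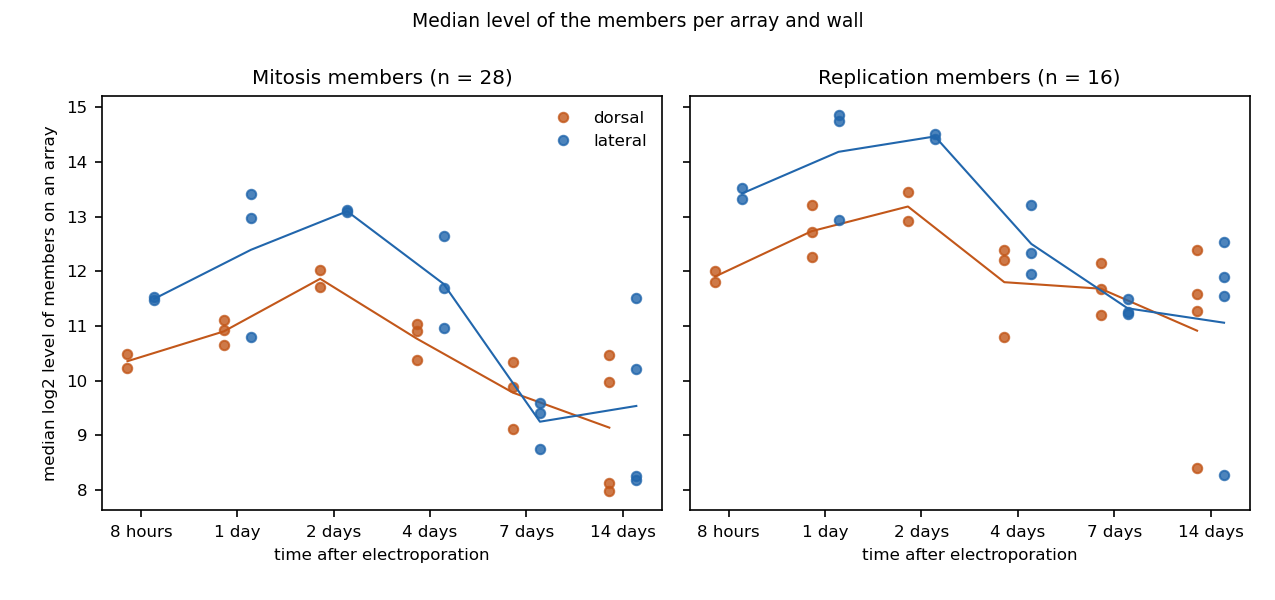
Median log2 level of the 28 mitosis genes (left) and of the 16 replication genes (right) on each array, in dorsal samples (orange) and lateral samples (blue), by time after electroporation. Points are arrays and lines join the means of a time. At 2 days the mitosis medians were 12.02 and 11.71 in the dorsal samples, against 13.11 and 13.08 in the lateral ones.

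The lateral samples were tested first for late against early times, which asks whether the genes fell as the electroporated cells aged. Of 44 genes, 26 were called lower late and 0 higher, 18 of 28 mitosis and 8 of 16 replication genes, where 2.23% of all 26414 genes were called lower. All 44 estimates were below 0, with a median of -2.72, against 0.05 over all genes. At an unadjusted p under 0.05 there were 43 of 44, against 4132 of 26414 genes in all, and the exception was cyclin E2 at -0.19 ± 0.77.

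Among the regulators of mitotic entry and exit, cyclin B2 (Ccnb2), a partner of the kinase Cdk1, had lateral levels of 12.29 and 12.04 (8 hours), 12.21, 12.62 and 13.31 (1 day), and 12.53 and 12.99 (2 days). They were 11.29, 11.88 and 11.14 on the 4 days arrays, 10.06, 9.50 and 9.70 on the 7 days arrays, and 11.09, 11.77, 11.39 and 10.57 on the 14 days arrays. Every late array lay below every early one, and 7 days was lower than 14 days. The difference was -2.07 ± 0.25, a 4.19-fold lower level late (adjusted p = 0.000433 by limma). Cyclin A2 (Ccna2), which acts in S phase and in mitotic entry, fell by 3.21 ± 0.53 (9.26-fold, adjusted p = 0.00364 by limma). Cyclin B1 (Ccnb1) was -2.86 ± 1.13 and was not called (adjusted p = 0.21), and its lateral level of 6.42 on 1 day replicate 1 stood far below the 13.51 and 12.96 of the other 1 day arrays. Plk1, a kinase of mitotic entry and spindle assembly, had late levels of 9.12 to 11.65, against early levels of 11.54 to 14.42 with a median of 13.53. It fell by 2.72 ± 0.39 (6.60-fold, adjusted p = 0.00144 by limma), although its highest late array, at 11.65, overlapped the lowest early one. Cdc20, which activates the anaphase-promoting complex, fell by 2.71 ± 0.64 (adjusted p = 0.0282 by limma), a call that was lost when either 8 hours array, either 2 days array or any 7 days array was left out (adjusted p of 0.0588 to 0.0839). Cdca3, a trigger of mitotic entry, fell by 3.24 ± 0.59 with no overlap of late and early arrays.

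The spindle checkpoint kinase Bub1 fell by 3.44 ± 0.82, and its call was lost without either 8 hours array, either 2 days array, or 7 days replicate 2 or 3 (adjusted p of 0.0583 to 0.081). Bub1 was well above background on 2 of 4 lateral arrays of 14 days. Its partner Bub1b was -3.34 ± 0.90 and just missed the threshold (adjusted p = 0.0509), and the checkpoint kinase Ttk was -1.59 ± 0.65 (adjusted p = 0.229). In the chromosomal passenger complex, which corrects faulty spindle attachments, the kinase Aurkb had late levels of 5.86 to 9.64 (median 7.88), against 8.92 to 13.02 (median 11.24) early. Aurkb fell by 3.13 ± 0.53 (8.78-fold, adjusted p = 0.00387 by limma), with late arrays that overlapped the 8 hours ones, and its partner Cdca8 (borealin) was 8.58-fold lower late with no overlap (adjusted p = 0.0109 by limma). Aurkb was well above background on 2 of 4 lateral arrays of 14 days. Survivin (Birc5), the third member measured, was -1.98 ± 0.54 and was not called (adjusted p = 0.0549). Aurka, a kinase of the spindle poles, was called at -2.36 ± 0.61 with an adjusted p of 0.0423, which was under 0.05 in 3 of the 17 fits with 1 array left out.

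Of the centromere and kinetochore genes, the centromeric histone Cenpa fell by 3.17 ± 0.64 and the kinetochore protein Cenpf by 3.33 ± 0.49 (10.1-fold, adjusted p = 0.00176 by limma). Neither had late arrays that overlapped early ones: Cenpf had 8.33 to 11.78 late (median 9.38), against 12.09 to 14.00 early (median 13.75). The kinetochore motor Cenpe (-2.85 ± 0.81) and the microtubule-binding Ndc80 (-1.32 ± 0.37) and Nuf2 (-2.26 ± 0.97) were below 0 and not called. Among kinesins, Kif11, the motor that pushes spindle poles apart, fell by 3.30 ± 0.57 and Kif20a, a motor of cytokinesis, by 2.26 ± 0.58. Kif11 was well above background on 2 of 3 lateral arrays of 7 days and on 3 of 4 of 14 days. A further, dimmer Kif11 probe was at -0.39 in the lateral samples. Kif23 (-3.17 ± 1.06), which bundles midzone microtubules, and the depolymerase Kif2c (-1.92 ± 0.59) were not called. The call of Kif20a held in 3 of 17 fits with 1 array left out.

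Of the spindle proteins, Nusap1 was 12.1-fold lower late (adjusted p = 0.00389 by limma) and Hmmr fell by 1.96 ± 0.29, while the spindle assembly factor Tpx2 was -2.67 ± 1.14 and was not called (adjusted p = 0.26). Ect2, an activator of RhoA in cytokinesis, had the lowest estimate of the list, -4.25 ± 0.74 (19.0-fold, adjusted p = 0.00506 by limma). Its lateral levels were 6.23, 6.77 and 8.02 (7 days) and 6.08, 6.39, 10.41 and 8.52 (14 days), against 10.39 and 10.52 (8 hours), 9.64, 13.54 and 12.97 (1 day), and 12.73 and 12.33 (2 days). The late arrays of Ect2 were low with 1 exception, 14 days replicate 3. Ect2 was well above background on 2 of 3 lateral arrays of 7 days and on 2 of 4 of 14 days. Its fold difference thus depends on the background level. A further, dimmer Ect2 probe was at -0.44 in the lateral samples. Ki-67 (Mki67), a chromosome surface protein of cycling cells, fell by 3.39 ± 0.77 (adjusted p = 0.0227 by limma), with late levels of 6.15 to 12.07 (median 11.52), against 13.10 to 14.99 (median 14.33) early. The call of Mki67 was lost without either 8 hours array, either 2 days array, or 7 days replicate 1 or 2 (adjusted p of 0.0507 to 0.0685). Topoisomerase II alpha (Top2a), which untangles sister DNA, fell by 2.15 ± 0.54, a call held in 3 of 17 fits with 1 array left out.

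Of the 6 MCM helicase subunits, 4 were called lower late in the lateral samples. Mcm5 had lateral levels of 13.98 and 13.22 (8 hours), 14.86, 14.91 and 14.80 (1 day), 14.48 and 14.64 (2 days), 12.10, 13.27 and 12.09 (4 days), 9.83, 10.64 and 11.71 (7 days), and 12.41, 14.25, 12.09 and 12.70 (14 days). Mcm5 was lowest at 7 days, and among late arrays only 14 days replicate 2 reached the early range. It fell by 2.54 ± 0.38 (5.83-fold, adjusted p = 0.00199 by limma). Mcm2 fell by 3.92 ± 0.84 (adjusted p = 0.0166 by limma) and Mcm3 was 12.1-fold lower (adjusted p = 0.017 by limma), both with no overlap between late and early arrays. The call of Mcm2 was lost without 8 hours replicate 1 (adjusted p = 0.0509) or 2 days replicate 1 (0.0505), and that of Mcm3 without 7 days replicate 1 (0.0515). Mcm6 was called at -2.69 ± 0.70 (adjusted p = 0.0431), a call held in 4 of 17 fits with 1 array left out. Mcm4 was -1.53 ± 0.51 and Mcm7 -0.60 ± 0.18, and neither was called (adjusted p of 0.124 and 0.0778).

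E2f1, a transcription factor of S phase entry, fell by 3.95 ± 0.76 (15.5-fold, adjusted p = 0.00906 by limma), with late levels of 6.41 to 12.36 (median 10.80), against 12.87 to 14.58 (median 13.85) early. E2f1 was well above background on 2 of 4 lateral arrays of 14 days, and its further, dimmer probe was at -2.66. Cyclin E1 (Ccne1), a partner of Cdk2, fell by 3.22 ± 0.62 and geminin (Gmnn) by 3.13 ± 0.66. The large subunit of ribonucleotide reductase, Rrm1, fell by 1.67 ± 0.27 (3.19-fold, adjusted p = 0.00324 by limma). Its small subunit Rrm2 had an estimate of -3.21 ± 1.16 and was not called (adjusted p = 0.162), with a lateral level of 7.85 on 1 day replicate 1 against 15.02 and 14.27 on the other 1 day arrays. Thymidylate synthase (Tyms), at -2.55 ± 0.77, was not called although none of its late arrays overlapped an early one. The licensing factor Cdt1 (-2.72 ± 0.79), the checkpoint kinase Chek1 (-2.22 ± 1.01) and Pcna (-1.10 ± 0.48) were not called either.

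In all, 12 of 44 genes had every late lateral array below every early one, 6 of mitosis and 6 of replication, where this held for 0.489% of 24752 genes measured on all these arrays. They were Mki67, Ccnb2, Cdca3, Cdca8, Cenpa, Cenpf, Mcm2, Mcm3, Mcm6, E2f1, Ccne1 and Tyms. Without the 2 arrays that stand apart, which was tried after the data were seen, the count was 25 of 44, against 1.4% of genes. The number called lower by limma moved with 1 array in particular: it was 40 without 1 day replicate 1 and 18 to 28 with any other array left out. Without both arrays that stand apart it was 42.

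The same slide held 7 days and earlier arrays in 3 cases, which allowed the late against early change to be read within a slide. Between 7 days and 2 days on slide 3, 43 of 44 genes were lower late in the lateral samples, with a median of -3.53, and on slide 4 it was 43 of 44 with a median of -3.26. Between 7 days and 8 hours on slide 1, 42 of 44 were lower, with a median of -1.51. All 3 slides thus showed the lateral fall. A fit of 7 days against 8 hours and 2 days called 37 of 44 genes lower in the lateral samples, and it also called 37 with slide as a fixed block. Both fits were added after the data were seen. The share of all genes they called is not given here, so the count of 37 cannot be set against a background share. A total of 21 genes had further probes, and 23 of their 24 further probes were below 0 in the lateral samples.

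Other genes of the same processes fell as well. Of 60 other mitosis genes, 17 were called lower late and 0 higher in the lateral samples (median -2.17), and of 50 other replication genes, 18 were lower and 0 higher (median -1.91). In the same comparison 2.23% of all genes were called lower. The kinetochore gene Ska1 (-3.98 ± 0.72), the B-Myb factor Mybl2 (-3.95 ± 0.75), the condensin subunit Ncapg (-3.86 ± 0.56) and the chromokinesin Kif4 (-3.66 ± 0.49) had the largest differences among the mitosis genes. Among the replication genes, the initiation factor Mcm10 was at -4.40 ± 0.94 and the histone chaperone subunit Chaf1a at -4.29 ± 0.67. These lists were chosen with earlier results of these data known.

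Some markers of cell types also differed between late and early times. Of 12 neuroblast markers, 9 were called higher late in the lateral samples and 0 lower (list mean per array 12.85 to 14.00 late, 9.67 to 12.93 early), and of 11 mature neuron markers 4 were higher. Of 13 radial glia markers 3 were lower (10.03 to 11.21 late, 11.22 to 12.19 early). Of 10 astrocyte markers 2 were higher and 2 lower, of 12 oligodendrocyte lineage markers 2 were higher, and of 12 microglia markers 1 was higher (11.35 to 15.92 late, 7.77 to 14.57 early). None of 10 endothelial and 7 erythroid markers was called in the lateral samples by limma, and 0 of each had an unadjusted p under 0.05, while no marker was below background on all arrays. Of all genes, 2.23% were called lower late in the lateral samples, and the share called higher is not given here. The part of these cell types in the fall was not tested.

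**Figure D3:**
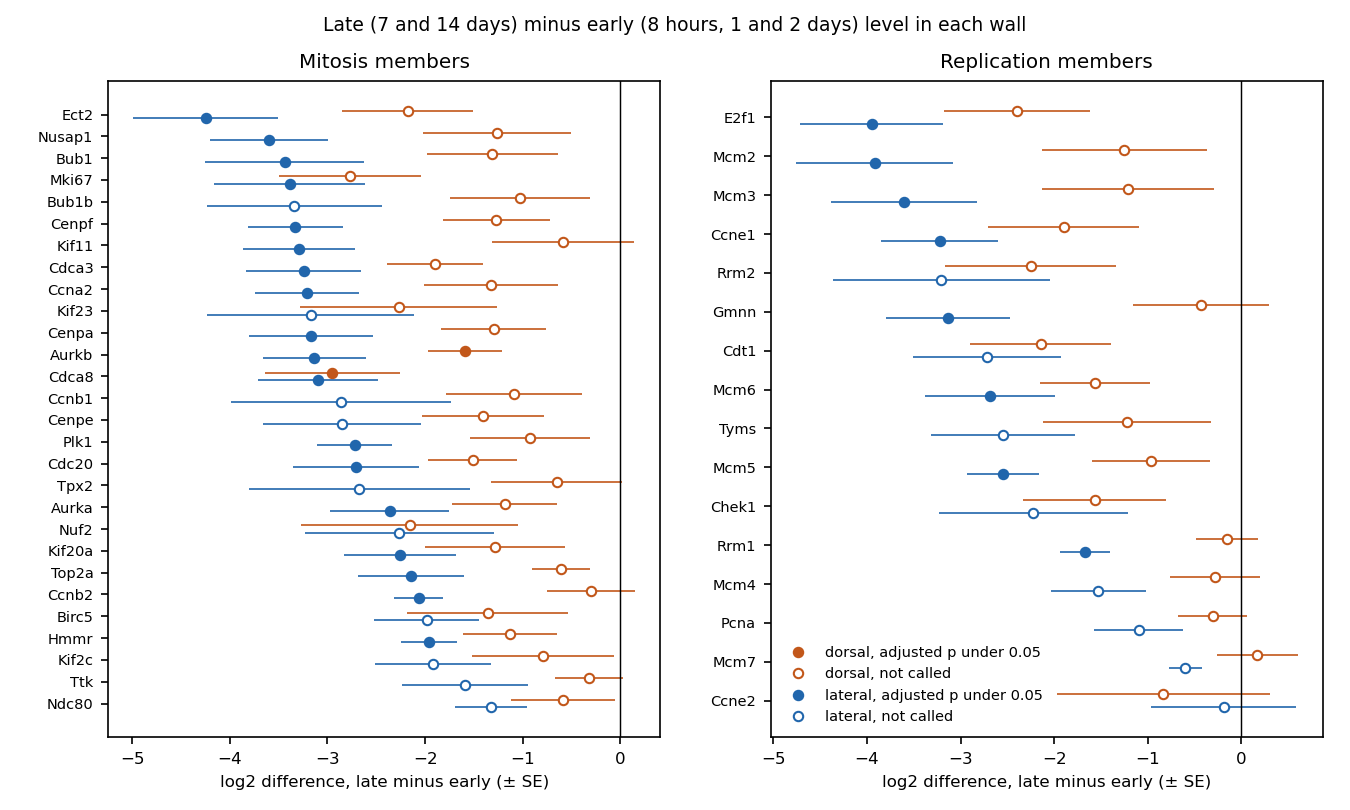
Late (7 and 14 days) minus early (8 hours, 1 and 2 days) log2 difference of each mitosis gene (left) and replication gene (right), with SE as bars, in dorsal samples (orange) and lateral samples (blue). Filled points had an adjusted p under 0.05. All 44 lateral estimates lie below 0, 26 of them filled, and 43 of 44 dorsal estimates lie below 0, 2 of them filled.

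In the dorsal samples most genes also had lower late levels, but few differences exceeded the spread between arrays. Of 44 genes, 2 were called lower late and 0 higher, where 2.03% of all genes were called lower, a share near that of the 44 genes. The median difference was -1.26, against 0.02 over all genes, and 43 of 44 estimates were below 0. At an unadjusted p under 0.05 the count was 17 of 44, against 3760 of 26414 genes in all. The share of probes well above background in these samples was 61.5 to 72.7% on the 7 days arrays and 41.5 to 62.9% on the 14 days arrays, against 61.6 to 77.0% on the early ones, lower at 14 days on most arrays, and its part in the change was not tested. The passenger complex kinase Aurkb had dorsal levels of 7.19, 7.70 and 8.74 (7 days) and 7.43, 6.12, 8.94 and 7.85 (14 days), against 8.80 and 8.77 (8 hours), 9.09, 9.76 and 9.36 (1 day), and 9.67 and 9.89 (2 days). Its late arrays were low except 14 days replicate 3, which overlapped the 8 hours arrays. Aurkb fell by 1.59 ± 0.38 (3.01-fold, adjusted p = 0.0416 by limma), and its partner Cdca8 fell by 2.95 ± 0.69 (7.73-fold, adjusted p = 0.0357 by limma).

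Both dorsal calls were fragile. The call of Aurkb held only without 1 day replicate 1, 7 days replicate 3, or 14 days replicate 2 or 3 among 17 fits with 1 array left out, with adjusted p up to 0.122 in the others. That of Cdca8 held only without 1 day replicate 3, 4 days replicate 1 or 2, or 14 days replicate 3. The number of genes called was 7 without 14 days replicate 3, 2 without 7 days replicate 3, and 0 or 1 without any other array. Cdca3 (-1.90 ± 0.49, adjusted p = 0.058) and Mki67 (-2.77 ± 0.73, adjusted p = 0.0621) lay just above the threshold. Of the other genes, E2f1 was -2.40 ± 0.78, Cdc20 -1.51 ± 0.46, Mcm6 -1.56 ± 0.58 and Plk1 -0.92 ± 0.62. The dorsal fall of E2f1 was not seen on its further probe, which was at 0.26. That probe had a mean dorsal level of 10.24, against 10.85 for the probe used. Mcm7 was the 1 gene with an estimate above 0, at 0.17 ± 0.43. Of 44 genes, 0 had late dorsal arrays that were all below the early ones. This held for 0.711% of 24752 genes measured on all arrays, so 0 of 44 is near the background share.

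Within slides the dorsal change was not alike. On slide 3, 42 of 44 genes were lower at 7 days than at 2 days (median -2.31), and on slide 4 it was 39 of 44 (median -1.22). On slide 1, 24 of 44 were lower at 7 days than at 8 hours (median -0.03). Slide 1 holds 1 array of 7 days, replicate 3, whose median over the 44 genes was the highest of that time, at 10.86, against 9.56 and 10.69 on replicates 1 and 2, so early time, slide and replicate cannot be told apart here. Of 24 further probes 22 were below 0 in the dorsal samples. Among the dorsal markers, 6 of 12 neuroblast markers (list mean per array 10.98 to 13.83 late, 9.85 to 11.16 early), 2 of 11 mature neuron, 2 of 10 astrocyte and 1 of 12 oligodendrocyte lineage markers were called higher late, and 5 of 13 radial glia, 3 of 10 astrocyte and 2 of 7 erythroid markers lower. Limma called 0 of 12 microglia and 0 of 10 endothelial markers there, with 3 and 2 at an unadjusted p under 0.05. Of all genes, 2.03% were called lower late in the dorsal samples, and the share called higher is not given here. The part of these cell types in the dorsal change was not tested.

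A test of any change over the 6 times, which does not need the split into late and early, called 12 of 44 genes in the lateral samples, where 4.69% of all genes were called, and 33 had an unadjusted p under 0.05, against 4596 of 26414 genes in all. They were 9 mitosis genes (Aurkb, Ccna2, Ccnb2, Cenpf, Plk1, Nusap1, Kif11, Hmmr and Ect2) and 3 replication genes (Mcm5, Rrm1 and E2f1). The span between the highest and the lowest time mean was 2.32 for Rrm1 and 6.07 for E2f1, the ends of the range among them. E2f1 was called in 3 of 17 fits with 1 array left out, Ect2 in 7 and Kif11 in 13, and the number called was 21 without 1 day replicate 1 and 20 without 14 days replicate 2. In the dorsal samples limma called 0 of 44, where 3.51% of all genes were called, and 10 had an unadjusted p under 0.05, against 4391 of 26414 genes in all.

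Whether the walls differed in the fall was tested as the late minus early change of the dorsal against lateral difference. The estimate was above 0, a smaller fall in the dorsal samples, for 43 of 44 genes, with a median of 1.33, against -0.02 over all genes. Only Rrm1 was called, at 1.52 ± 0.23 (adjusted p = 0.032 by limma), where 0.0265% of all genes were called higher, and 22 of 44 had an unadjusted p under 0.05, against 2584 of 26414 genes in all. On the arrays, Rrm1 was lower in the dorsal than in the lateral samples at every early time, with differences of -0.56 and -0.70 (8 hours), -0.81, -1.59 and -1.42 (1 day) and -0.10 and -1.17 (2 days), and higher on all 7 late arrays, with differences of 0.90, 0.44 and 0.04 (7 days) and 0.59, 1.28, 0.98 and 0.71 (14 days). The dorsal level of Rrm1 averaged 12.97 ± 0.28 (7 days, SD, n = 3) and 13.66 ± 1.01 (14 days, n = 4), against 12.80 ± 0.11 (8 hours, n = 2), 13.56 ± 0.06 (1 day, n = 3) and 14.03 ± 0.51 (2 days, n = 2). The lateral level averaged 12.51 ± 0.40 and 12.77 ± 0.75 late, against 13.43 ± 0.01, 14.83 ± 0.39 and 14.66 ± 0.25 early. Early and late lateral levels thus lay apart in their means while dorsal ones did not.

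The call of Rrm1 was lost without either 8 hours array, 4 days replicate 2, 7 days replicate 1 or 2, or 14 days replicate 2 (adjusted p of 0.0539 to 0.0817). In the fit of 7 days against 8 hours and 2 days it was 1.09 ± 0.34 (adjusted p = 0.369), or 1.07 ± 0.36 with slide as a fixed block (adjusted p = 0.481), and 0 genes of the 44 were called. The next lowest p-values were those of Aurkb, at 1.54 ± 0.32 (adjusted p = 0.1), Bub1 at 2.13 ± 0.48 and Nusap1 at 2.33 ± 0.53 (both 0.13), which were named after their values were seen. Cyclin E2 was the 1 gene with an estimate below 0, at -0.65 ± 1.32. Within slides the median change of the difference was 1.64 on slide 1, 1.47 on slide 3 and 1.97 on slide 4, with 43, 36 and 39 of 44 genes above 0. Apart from Rrm1, then, a smaller dorsal than lateral fall was the common direction but was not called gene by gene.

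The dorsal minus lateral difference itself was tested as a mean over the 6 times, in which dye and wall cannot be told apart. Of 44 genes, 4 were called lower in the dorsal samples and 0 higher, where 1.09% of all genes were called lower, and 43 estimates were below 0, with a median of -0.75, against 0.02 over all genes. They were Cenpa (-1.17 ± 0.22, adjusted p = 0.0159 by limma, lower on 12 of 17 arrays), Mcm7 (-1.16 ± 0.22, 15 of 17), Aurkb (-0.99 ± 0.15, 14 of 17) and Ccna2 (-0.99 ± 0.22, 12 of 17). The call of Aurkb held with any 1 array left out, those of Cenpa and Mcm7 were lost without 8 hours replicate 1 or 2 days replicate 1, and that of Ccna2 was kept in 5 of 17 fits. The number called was 10 without 1 day replicate 1 and 1 without 8 hours replicate 1 or 2 days replicate 1. Centring each array on its median ratio in place of the loess fit moved the median of all genes to -0.21 and called 35 of the 44. The share of all genes called with that centring is not given here.

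Over all 44 genes the median difference was largest at 1 day, as it was for the mitosis genes (-1.62), while the replication genes had -1.29 at 8 hours, -1.22 at 1 day and -1.23 at 2 days. Of 44 genes, 6 were called lower in the dorsal samples and 0 higher, where 0.412% of all genes were called lower, and the median was -1.58. Aurkb had dorsal levels of 9.09, 9.76 and 9.36 at 1 day, against lateral levels of 12.21, 13.02 and 12.12, and the groups did not overlap. It differed by -3.05 ± 0.34 (8.29-fold, adjusted p = 0.00216 by limma). Mcm3 differed by -3.72 ± 0.71 (13.2-fold, adjusted p = 0.0287 by limma), with dorsal levels of 8.69, 12.14 and 12.28, against 14.73, 14.77 and 14.77 in the lateral samples. Ccna2 differed by -2.91 ± 0.51, Nusap1 by -2.82 ± 0.56, Cenpa by -2.72 ± 0.50 and Rrm1 by -1.27 ± 0.25. All 6 were lower in the dorsal sample on 3 of 3 arrays. The call of Aurkb held with any 1 array left out, and each of the other 5 was lost without at least 1 array of 1 day: the count was 3 without 1 day replicate 2 and 2 without 1 day replicate 3. On 1 day replicate 1, which stood apart, 22 of 44 genes were lower in the dorsal sample, against 43 and 42 on the other 1 day arrays.

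At the other times limma called none of the 44 genes. At 8 hours the median was -1.09, and 0.0983% of all genes were called lower. An unadjusted p under 0.05 was reached by 3 of 44 genes, against 1941 of 26458 in all, a like share. At 2 days it was -1.26, with 44 of 44 estimates below 0, and 0.034% of all genes were called lower. Here 4 of 44 reached that p, against 2081 of 26458 in all. The early times thus shared the direction of 1 day. At 4 days it was -0.77, with 4 such genes, against 1446 of 26458 in all, and 0% of all genes were called lower. At 7 days the median was 0.39, with 32 of 44 estimates above 0, 5 genes at an unadjusted p under 0.05, against 1363 of 26458 in all, and 0.00378% of all genes called lower. At 14 days it was -0.15, with 5 such genes, against 2727 of 26414 in all, which is a like share, and 0.0189% of all genes were called lower. The sign at 7 days depends on the scaling: with each array centred on its median ratio the median of the 44 genes was -0.14 and that of all genes -0.21. At 14 days it was 0.01 with the mean over a gene's probes and 0.02 with a replicate block.

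Arrays of 1 time differed in this. On 4 days replicate 1, 14 of 44 genes were lower in the dorsal sample, against 41 and 39 on replicates 2 and 3. At 7 days the counts were 18, 14 and 12, and at 14 days 24, 18, 32 and 24, while both 8 hours arrays (40 and 41) and both 2 days arrays (43 and 43) had nearly all genes lower in the dorsal sample. Radial glia and astrocyte markers lay the other way as a mean over times, with 4 of 13 and 4 of 10 called higher in the dorsal samples, and 2 of 12 neuroblast markers were lower there. Of 7 erythroid markers 1 was called higher in the dorsal samples, and the median of that list was 3.43 at 8 hours and 2.13 at 2 days. Of all genes, 1.09% were called lower as a mean over times, and the share called higher is not given here. The part of these cell types in the difference was not tested.

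**Figure D4:**
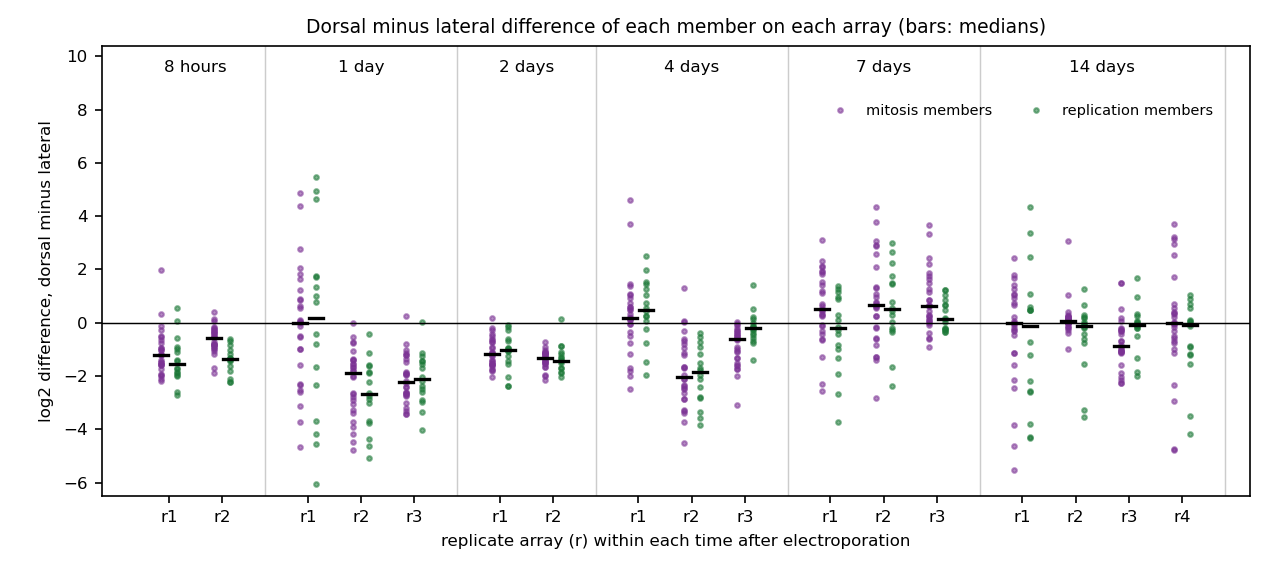
Dorsal minus lateral log2 difference of each mitosis gene (purple) and replication gene (green) on each of the 17 arrays, by time after electroporation and replicate. Black bars are medians. Medians lie below 0 on both arrays of 8 hours and of 2 days and near or above 0 at 7 days, and arrays of 1 day and of 4 days differ among themselves.

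The steps between neighbouring times were read on the mean of both walls. From 8 hours to 1 day, 1 of 44 genes was called, where 1.42% of all genes were called in either direction, a share near that of the 44 genes. The gene called was Hmmr, a spindle protein, with a rise of 2.64 ± 0.50 (6.25-fold, adjusted p = 0.0223 by limma). Its dorsal levels were 12.80, 10.43 and 9.22 at 1 day, against 7.79 and 8.07 at 8 hours, and its lateral levels were 10.96, 11.97 and 11.17, against 9.39 and 8.55. No array of 1 day overlapped those of 8 hours in either wall, and the share of all genes with no overlap is not given here. The 8 hours arrays were on slide 1 and the 1 day arrays on slide 2, so slide and time cannot be told apart in this step. The call was lost without 8 hours replicate 1 or 2 or 1 day replicate 2 (adjusted p of 0.0679 to 0.262). The median of the 44 genes was 0.73 in this step, against 0.21 over all genes, and without normalization between arrays it was -0.001, against -0.21.

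From 1 to 2 days the median was 0.59, with 36 of 44 estimates above 0. Limma called 0 of 44, where 0.00378% of all genes were called, and 3 had an unadjusted p under 0.05, against 2417 of 26458 genes in all, so these genes were not above the background share. From 2 to 4 days the median was -1.18, with 42 of 44 estimates below 0, 0 calls and 7 genes at an unadjusted p under 0.05, against 2356 of 26458 in all, where 0.631% of all genes were called. From 4 to 7 days it was -1.17, with 43 of 44 below 0, 0 calls and 12 such genes, against 1153 of 26458 in all, where 0.068% were called. The mitosis genes had a median of -1.43 and the replication genes of -0.59 in this last step. With slide as a fixed block and without 1 day and 14 days, which was tried after the data were seen, 11 genes were called lower from 2 to 4 days and 8 from 4 to 7 days. The share of all genes called with that block is not given here. From 7 to 14 days the median was -0.35, with 29 of 44 below 0, 0 calls and 3 genes at an unadjusted p under 0.05, against 3245 of 26414 in all, where 0.651% were called. This last median turned to 0.10 without 14 days replicate 2 and to 0.15 with array weights. Microglia markers moved in these steps as well. All 12 had estimates below 0 between 8 hours and 1 day (median -3.45, 8 at an unadjusted p under 0.05) and above 0 between 1 and 2 days (median 3.63, 9 at that p). Between 2 and 4 days their median was -2.46, between 4 and 7 days 3.04, and between 7 and 14 days -2.11, and limma called 0 of 12 in each step. Their part in the steps was not tested.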

How the data were processed

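The 17 arrays are two-colour scanner files with a dorsal (Cy3) and a lateral (Cy5) channel. Agilent Feature Extraction, in version 10.5.1.1 or else 10.7.3.1, wrote them per the file headers, and the spot intensities deposited by the authors are mean and background signals. The deposited value table was set against the log10 red over green ratios in the scanner files deposited by the authors. Its columns ran the opposite way, so they were read as log2 ratios of dorsal over lateral by the authors, with medians near 0 and a normalization that is not stated.

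Intensities were background-corrected with normexp (offset 50), normalized by loess within arrays and Aquantile between arrays in limma 3.58.1 (R 4.3.3), and set on the log2 scale. Control spots were left out after normexp, outlier-flagged spots were dropped, and spots of a probe were averaged. A probe was kept where 2 or more of 17 arrays had it well above background in at least 1 channel (36785 of 41174), and the brightest probe on average stood for a gene. Accessions named 26876 probes, symbols or synonyms 3241, and 11057 kept the name in the files. Means per time were fitted with lmFit and eBayes over all genes, and p-values were adjusted by Benjamini-Hochberg with a threshold of 0.05. The fits were tested on simulated data. The number of arrays limits the precision.

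The genes named are those called (at most 10 by size for mitosis and for replication), 17 anchor genes (Mki67, Top2a, Aurkb, Ccnb1, Cdc20, Plk1, Kif11, Cenpf, Birc5, Mcm2, Mcm6, Pcna, Rrm2, Tyms, Ccne1, Gmnn and E2f1), up to 4 genes against their list's direction, and the 4 called with the largest difference in each of the other lists. Further genes named were chosen after their values were seen. The genes and lists were chosen with earlier results of these data known. Alternatives tried were other normalizations, filters and probe rules, array weights, slide and replicate blocks, the deposited value table and 1 array left out in turn. Prc1 had no probe that could be used here. Some genes that this rule would name are not reported here.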

Additional observations from a re-analysis of the deposited data

Results flagged for a closer look

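A few genes had 1 array of 14 days that stood apart from the other 3 in a wall by a gap test for small groups, which chance flags in about 1 in 20 groups. In the dorsal samples 4 of 44 genes were so marked: Cdca8 at 12.19 on replicate 3, Kif2c at 11.58 on replicate 4, Mcm4 at 11.73 on replicate 2 and Chek1 at 11.61 on replicate 3. In the lateral samples it was 3 of 44: Kif11 at 9.11 on replicate 3, and Mcm3 at 6.24 and Rrm2 at 6.04 on replicate 2. Replicate 2 of 14 days is 1 of the 2 arrays that stand apart over all genes. The late minus early change of Rrm1 differed between the walls by 1.52 in the test of that difference itself, with a smaller fall in the dorsal samples.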

How the results depend on the processing

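Over 52 calls, 556 of 641 fits under other settings and 712 of 884 fits with 1 array left out kept the call. No call that had a direction reversed it. The 12 calls of any change with time have no direction, so a reversal could not be recorded for them. The lateral count of 26 lower late was 42 with array weights and 42 without both arrays that stand apart, 18 to 40 with 1 array left out, and 19 to 37 under the other settings. The lateral count of 12 with any change was 43 with array weights, 36 with slide as a random block, 31 without both arrays apart, and 9 to 21 with 1 array left out. The dorsal late count of 2 was 1 with median centring, 1 with quantile normalization, 0 from scanner processed signals, 4 with the mean over probes, 11 with array weights, 4 with slide as a random block, 1 without both arrays apart, 0 in both fits of 7 days against 8 hours and 2 days, and 0 to 7 with 1 array left out. The dorsal count of 0 with any change was 2 without normalization between arrays, 2 with the mean over probes, 32 with array weights, 17 with the random slide block, and 0 to 3 with 1 array left out. The mean wall difference, 4 genes, gave 35 with median centring, 2 from scanner signals, 8 with array weights, 22 with the random slide block, 2 in the deposited value table, 10 without both arrays apart, and 1 to 10 with 1 array left out. At 1 day, 6 genes became 11, 0, 1, 15, 1 and 3 under the same settings, and 2 to 7. At 14 days median centring called 2 and the random slide block 4. The wall by time count of 1 was 0 with median centring, 2 with quantile normalization, and 0 from scanner signals, with a stricter filter, in the value table and in both 7 days fits, and 0 to 2 with 1 array left out. From 8 hours to 1 day, 1 gene became 0 from scanner signals, 0 with the mean over probes, 30 with array weights, 7 with the random slide block, 4 without both arrays apart, and 0 to 2 with 1 array left out. Array weights called 8 from 1 to 2 days, 8 from 2 to 4 days and 3 from 4 to 7 days. From 2 to 4 days the count was 1 without normalization between arrays, 4 without both arrays apart and 11 with slide as a fixed block; from 4 to 7 days it was 1 and 8 in the last 2 of these. From 7 to 14 days it was 2 with the random slide block, 1 without both arrays apart and 0 to 1 with 1 array left out; the other steps stayed at 0 to 0. Replicate numbers did not pair the arrays (mean correlation of same-numbered arrays 0.027, over 0.1 in 5 of 36 pairs), and with the replicate block the counts were 0 for the mean wall difference, 1 at 1 day, 0 for wall by time, 2 from 8 hours to 1 day and 28 for the lateral fall. The correlation within slides used by the random slide block was negative. It was -0.17 for the wall ratio, -0.22 for dorsal levels, -0.24 for lateral levels and -0.24 for the mean of both walls. Counts with that block thus cannot be read as corrected for slide. Causes of these moves were not tested. The shares of all genes that limma called under these settings or with 1 array left out are not given, here or above. A higher or lower count thus cannot be set against a background share, and it cannot be read as a result about these genes in particular. The fits without both arrays apart, of 7 days alone and with a fixed slide block were chosen after seeing the data.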

Other observations

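Outside the 44 genes, the histone chaperone subunit Chaf1a had a late minus early change that differed between the walls by 4.10 ± 0.64 (adjusted p = 0.032 by limma), with a smaller fall in the dorsal samples. At 1 day it was lower in the dorsal samples, with a dorsal minus lateral difference of -3.64 ± 0.68, as were the primase subunit Prim1 (-2.94 ± 0.54) and the Cdk-binding protein Cks2 (-2.96 ± 0.41). In the dorsal samples the late fall was called for 3 of 60 other mitosis genes, Mad2l1 (-2.39 ± 0.60), Gtse1 (-2.25 ± 0.56) and Smc4 (-1.13 ± 0.27), and for 1 of 50 other replication genes, Fancd2 (-1.40 ± 0.29), where 2.03% of all genes were called lower, so the count of other replication genes was at the background share.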
